A study of Mus musculus with 2 samples.

Results

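The binding map of PPARγ in mouse TH2 cells was read at 51 genes of oxygen sensing, MYC, glucose breakdown and nutrient uptake, which form 2 arms: 29 regulators and transporters, and 22 enzymes. The genes were listed by name, and a peak was given to one of them when its centre lay within 100 kb of a transcription start site (TSS) of that gene and nearer to it than to a TSS of any other protein-coding gene. Of 2537 peaks, 19 were given to 10 of the 51 genes. PPARγ is a nuclear receptor best known from fat cells. The cells came from C57BL/6J mice: naive CD4 T cells, activated in culture, were driven to TH2, the helper state of type 2 immunity. A retrovirus brought in TY1-tagged PPARγ on days 1 and 2. Chromatin was taken on day 4. The TY1 antibody ChIP library (1 library) was set against 1 input library of the same cells made without antibody, which the authors used as background. Both libraries carry the introduced receptor, so the map describes tagged, virally expressed PPARγ, and the receptor that the cells make themselves was not tagged. There is no replicate, the values are peak positions without a height, and expression was not measured, so the TH2 identity of the cells was not checked here. Per the file header, the ChIP library held 10229438 tags, of which 54617 lay in peaks.

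Hypoxia-inducible factors are pairs of an oxygen-sensitive α chain, such as the products of Hif1a and Epas1, and the stable partner encoded by Arnt. When oxygen is present, the prolyl hydroxylases encoded by Egln1, Egln2 and Egln3 mark the α chain, the ubiquitin ligase subunit VHL binds the mark, and the chain is degraded, while the asparagine hydroxylase encoded by Hif1an limits its activity. Stable HIF and MYC both raise transcription of glucose transporters, of glycolytic enzymes and of the lactate exporters, and activated T cells rely on this programme together with amino acid uptake to grow.

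The arms differed in how many genes held a peak. Among regulators and transporters, 9 of 29 genes had an assigned peak (31.0%, exact 95% binomial interval 15.3 to 50.8). Among enzymes, Hk2 was the sole gene with one, 1 of 22 (4.55%, interval 0.115 to 22.8). Over both arms 10 of 51 genes had a peak (19.6%, interval 9.82 to 33.1), and over all 21951 protein-coding genes 1737 had one, which is 7.91%. A peak within 10 kb stood at 7 of the 51 genes (13.7%, beside 4.31% of all protein-coding genes), and 2 or more peaks at 5 (9.80%, beside 1.59%), namely Hif1a, Egln3, Myc, Slc7a1 and Hk2. The intervals cover counting error only, and they overlap between the arms. The difference between the arms was given no test, because the genes were listed with results of these data known.

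The genes of the arms also differed in the sequence that counts as theirs. The territory of a gene, meaning all positions within 100 kb that are nearest to one of its TSSs, had a median of 100.3 kb for regulators and transporters, 39.8 kb for enzymes and 45.0 kb for all protein-coding genes. Per Mb of territory there were 5.47 peaks at regulators and transporters, 1.52 at enzymes and 1.32 at all protein-coding genes. Without Hif1a the first of these values was 4.05 peaks per Mb, and without Hif1a and Egln3 it was 3.26. A count that ignores which TSS is nearest does not use the territory, though its window still widens where a gene has starts far apart. By this count, 13 of 29 regulators and transporters (44.8%) and 6 of 22 enzymes (27.3%) had at least 1 peak within 100 kb, beside 24.9% of all protein-coding genes. On each of these measures the enzymes lay closer to the background than the other arm did. Their assigned share (4.55%) and their 1.52 peaks per Mb rest on the 2 peaks of Hk2 alone, so how near the background they stand is poorly known.

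**Figure D1:**
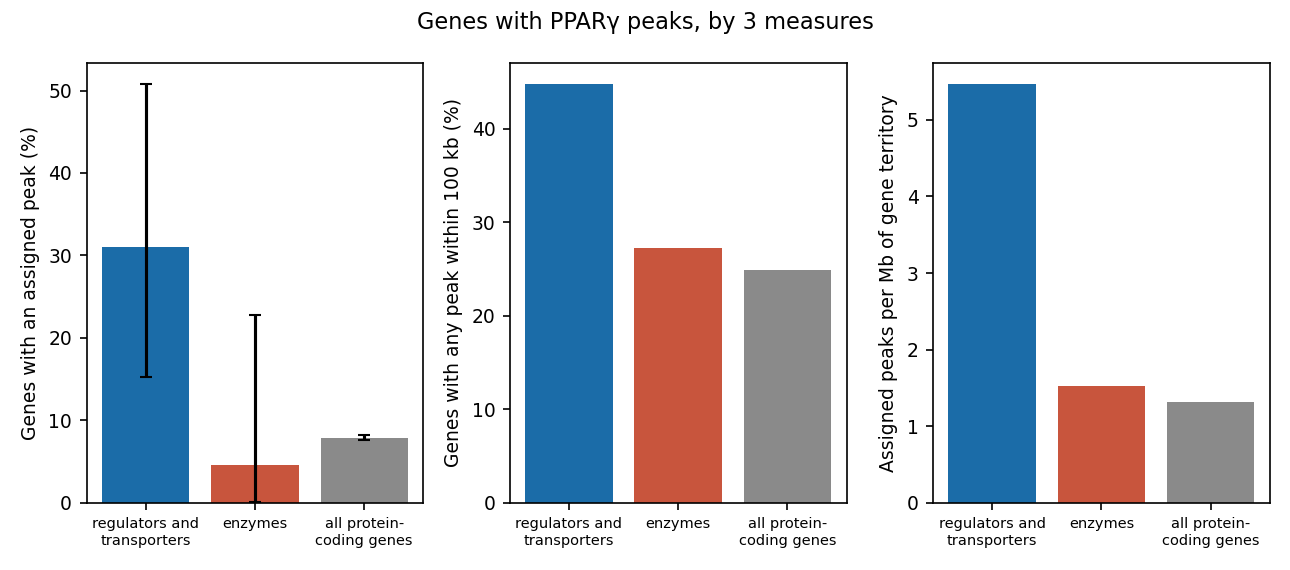
Bars show, for 29 regulators and transporters, 22 enzymes and all 21951 protein-coding genes, the percent of genes with an assigned peak (left, with exact 95% intervals), the percent with any peak within 100 kb (middle) and assigned peaks per Mb of territory (right). Regulators and transporters stand highest in each panel (31.0%, 44.8% and 5.47 per Mb), and enzymes lie at 4.55%, 27.3% and 1.52 per Mb.

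The sequences below are 200 bp windows around the centres of 8 of the 19 peaks. They were picked by hand among those with motif matches described further on, and other peaks with such matches are not shown. All are the plus strand of mm10 read from the reference genome, 5′ to 3′, in lower case. Capitals mark DR1 (a direct repeat of AGGTCA with 1 spacer base, the element bound by PPARγ with its partner RXR, here with up to 2 mismatches in the 12 fixed bases), its half-site AGGTCA alone, the AP-1 site TGACTCA or TGAGTCA, the ETS sites ACAGGAAG or ACCGGAAG, the STAT site TTCNNNGAA, or the hypoxia response core ACGTG or GCGTG, each on either strand.
Hif1a, 2.72 kb from the nearest TSS (chr12:73905081-73905280), DR1 and AP-1: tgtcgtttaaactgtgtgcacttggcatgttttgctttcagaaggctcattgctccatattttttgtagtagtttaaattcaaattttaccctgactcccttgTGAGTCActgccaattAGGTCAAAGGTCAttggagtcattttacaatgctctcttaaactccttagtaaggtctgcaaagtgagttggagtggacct
Hif1a, 59.0 kb (chr12:73842268-73842467), ETS and AP-1: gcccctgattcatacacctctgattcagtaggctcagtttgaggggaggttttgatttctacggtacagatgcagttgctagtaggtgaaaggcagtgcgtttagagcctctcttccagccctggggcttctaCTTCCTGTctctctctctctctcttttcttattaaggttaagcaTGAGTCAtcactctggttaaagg
Egln3, 89.6 kb (chr12:54293322-54293521), AP-1: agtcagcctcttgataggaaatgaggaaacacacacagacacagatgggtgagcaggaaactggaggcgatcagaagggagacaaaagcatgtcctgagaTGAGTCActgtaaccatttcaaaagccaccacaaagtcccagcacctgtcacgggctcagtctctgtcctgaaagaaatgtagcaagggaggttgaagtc
Myc, 1.98 kb (chr15:61983315-61983514), ETS and STAT: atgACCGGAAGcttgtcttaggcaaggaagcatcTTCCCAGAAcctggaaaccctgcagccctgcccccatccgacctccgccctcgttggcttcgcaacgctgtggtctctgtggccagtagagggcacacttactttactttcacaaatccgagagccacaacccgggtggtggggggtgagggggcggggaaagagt
Slc2a1, 16.9 kb (chr4:119125695-119125894), hypoxia response core: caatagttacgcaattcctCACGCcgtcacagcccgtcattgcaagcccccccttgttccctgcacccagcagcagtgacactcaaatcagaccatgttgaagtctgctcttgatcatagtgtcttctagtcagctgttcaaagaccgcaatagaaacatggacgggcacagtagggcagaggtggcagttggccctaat
Slc38a2, 10.9 kb (chr15:96710531-96710730), half-site and hypoxia response core: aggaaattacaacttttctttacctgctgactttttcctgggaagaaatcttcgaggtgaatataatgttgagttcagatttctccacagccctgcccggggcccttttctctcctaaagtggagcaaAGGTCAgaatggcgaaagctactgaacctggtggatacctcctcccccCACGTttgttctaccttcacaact
Hk2, 2.45 kb (chr6:82770440-82770639), half-site: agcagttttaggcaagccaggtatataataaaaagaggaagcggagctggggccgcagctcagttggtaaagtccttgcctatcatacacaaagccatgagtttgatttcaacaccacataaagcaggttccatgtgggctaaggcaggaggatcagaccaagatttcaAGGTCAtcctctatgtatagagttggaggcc
Hk2, 62.1 kb (chr6:82836483-82836682), DR1: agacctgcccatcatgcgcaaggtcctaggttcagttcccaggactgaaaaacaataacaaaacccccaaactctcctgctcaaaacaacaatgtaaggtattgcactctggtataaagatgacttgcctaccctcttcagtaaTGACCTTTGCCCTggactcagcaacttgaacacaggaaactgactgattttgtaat

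In the HIF pathway 2 of 8 genes had peaks (25.0%, beside 7.91% of all protein-coding genes), and these 2 held 8 of the 19 peaks. The median territory was 88.0 kb for HIF pathway genes and 45.0 kb for all protein-coding genes. Hif1a, which encodes the oxygen-sensitive chain of HIF-1, had 5 peaks spread over an intron and the sequence upstream. The nearest (chr12:73905095-73905267) was centred 3.81 kb downstream of the outermost start of the gene and 2.72 kb upstream of an internal start. It held DR1 without mismatch, AGGTCAAAGGTCA, and an AP-1 match 9 bases before it. An exact DR1 was found in 26 of all 2537 peaks (1.02%), and DR1 together with AP-1 in 85 (3.35%).

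The other 4 peaks of Hif1a lay upstream of the gene, at 11.9, 13.1, 50.4 and 59.0 kb, and none held DR1. The pair at 11.9 and 13.1 kb had centres 1.26 kb apart, both in repeat-masked sequence, and the pair at 50.4 and 59.0 kb had centres 8.66 kb apart. The peak at 11.9 kb held a half-site and a RUNX match (TGTGGTT or TGCGGTT), and that at 13.1 kb none of the motifs searched. The peak at 50.4 kb held an ETS and a RUNX match, and that at 59.0 kb an ETS and an AP-1 match. Of the 5 peaks, 4 were centred inside Gm15283, a noncoding transcript antisense to Hif1a that extends far upstream of it. A sixth peak, 15.3 kb from a Hif1a TSS, was given to Snapc1, whose TSS lay nearer at 11.6 kb. Among all genes with a peak, 9 of 1737 (0.518%) had 5 or more.

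Egln3, the gene of a prolyl hydroxylase that HIF itself induces, had 3 peaks in a cluster far upstream. They lay 89.6, 94.8 and 95.9 kb from its TSS, just inside the 100 kb limit, in intergenic sequence, and the next protein-coding gene, Sptssa, was 356 to 363 kb away. The outer pair had centres 1.05 kb apart, and the third stood 5.29 kb from the nearer of these. The peak at 89.6 kb (chr12:54293336-54293508) held an AP-1 match at its centre, and that at 94.8 kb held 2 GATA matches (AGATAA or TGATAA). The peak at 95.9 kb, centred in repeat-masked sequence, held a STAT match.

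The other HIF pathway genes had no assigned peak. Peaks lay within 100 kb of Arnt, at 22.5 and 48.8 kb, and of Epas1, at 57.4 kb. They were given to the nearer genes Ctsk, 4930558C23Rik and Tmem247. For Egln1 the nearest peak was at 248 kb and for Hif1an at 644 kb. For Egln2 and Vhl, which complete the degradation arm, it was at 1209 and 1699.6 kb.

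Of the MYC factors, Myc had 2 peaks and Mycn none, with its nearest peak at 1678 kb. The nearer peak (chr15:61983329-61983501) was centred 1.98 kb upstream of the Myc TSS, with 59.5% GC. Its 200 bp window held an ETS and a STAT match, and the ETS match (chr15:61983318-61983325) lay outside the called peak. The peak counted as promoter through a transcript of unconfirmed coding status, Gm37947, and not through Myc. The second, 76.2 kb from the nearest Myc TSS on the downstream side, was intronic in Pvt1, the long noncoding RNA gene that neighbours Myc in mouse and human, and held a GATA match. Neither held DR1. Beyond the 100 kb limit, 12 further peaks had Myc as their nearest protein-coding gene, at 281 to 898 kb, of which 2 held DR1 and 2 AP-1, and no other of the 51 genes had such peaks.

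**Figure D2:**
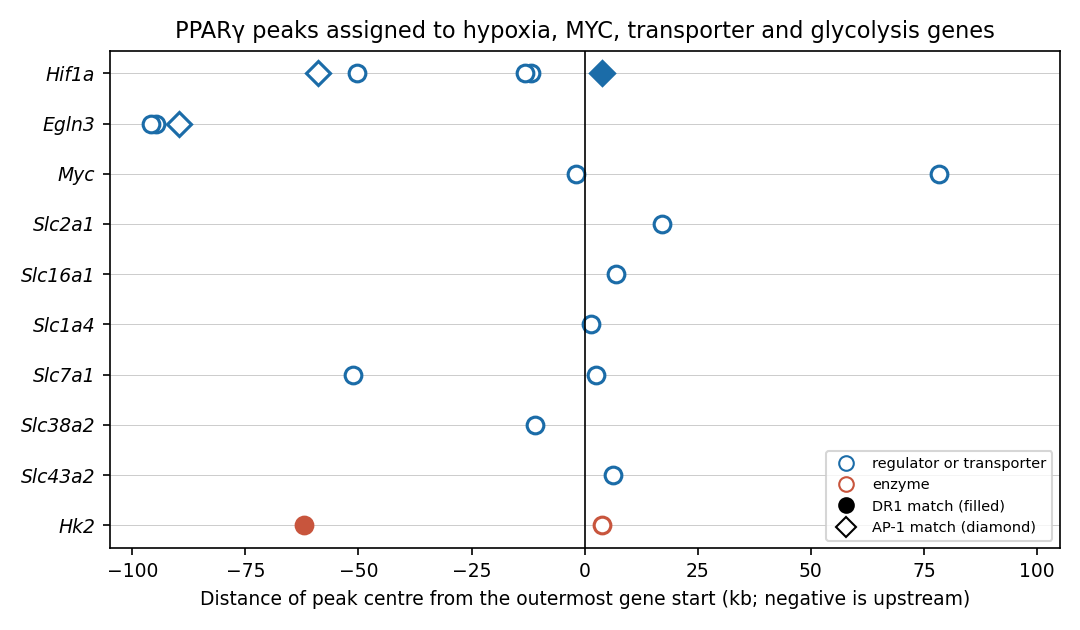
Each symbol is 1 of the 19 peaks, placed by the distance of its centre from the outermost start of its gene in kb (negative is upstream), for the 9 regulators and transporters (blue) and Hk2 (red). Filled symbols hold DR1 and diamonds AP-1: Hif1a and Egln3 carry 5 and 3 peaks, 7 of these 8 upstream, and the 2 peaks with DR1 belong to Hif1a and Hk2.

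Among transporters 6 of 19 genes (31.6%) had 7 peaks, beside 7.91% of all protein-coding genes with a peak. The median territory was 90.4 kb for transporters and 45.0 kb for all protein-coding genes. None of the 7 peaks held DR1 or AP-1. Lacking both motifs is common, as 65.7% of all peaks held neither, and with 7 peaks a difference from this share was not tested. Slc2a1, which encodes the main glucose carrier of activated T cells, had 1 peak in its own intron (chr4:119125709-119125881), 16.9 kb from the nearest TSS, with a match to the hypoxia response core. The glucose transporter gene Slc2a3, also a carrier of activated T cells, had its nearest peak at 121 kb. Slc2a4, the insulin-responsive carrier of muscle and fat, had 2 peaks within 100 kb, the nearer at 66.9 kb, and that one lay 315 bp from the fatty acid oxidation gene Acadvl, to which it was given. For Slc2a6 the distance was 377 kb.

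Of the monocarboxylate transporters, which carry lactate and pyruvate across the membrane, Slc16a1 had a peak 6.88 kb into the gene (chr3:104645458-104645630), with a half-site and a STAT match. It counted as promoter through Gm43585, a noncoding transcript annotated inside an intron. Slc16a3, the lactate exporter that HIF induces, had its nearest peak at 320.4 kb, and Slc16a7 at 1923 kb.

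Amino acid transporter genes with peaks were 4 of 12 (33.3%), beside 7.91% of all protein-coding genes. Their median territory was 86.2 kb, beside 45.0 kb for all protein-coding genes. In a separate list of 19 further amino acid transporter genes, with a median territory of 69.6 kb, 0 had a peak. Slc7a1, which encodes a carrier of arginine and lysine, had an intronic peak at 2.28 kb (chr5:148397423-148397595), centred in repeat-masked sequence, and an intergenic one 51.3 kb upstream. Slc1a4, for a carrier of alanine, serine and cysteine, had an intronic peak at 1.42 kb (chr11:20331183-20331355). None of these 3 windows held any of the 9 motifs searched.

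Slc38a2, for a sodium-coupled carrier of small neutral amino acids such as glutamine, had an intergenic peak 10.9 kb upstream (chr15:96710545-96710717), with a half-site and a hypoxia response core. The same peak was 67.7 kb from Slc38a1, the paralogue next to it, and was the only peak within 1 Mb of either gene. Slc43a2, for a carrier of branched-chain amino acids and phenylalanine, had a peak 7 bp from an annotated TSS (chr11:75537929-75538101), with an ETS match. That TSS starts a shorter transcript inside the gene: the distance to the nearest start of a coding transcript was 5.88 kb and to the outermost start 6.32 kb.

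The best known leucine and glutamine carriers of activated T cells had no assigned peak. The nearest peak was at 554 kb for Slc7a5 and 142 kb for Slc3a2, which together form the leucine carrier, and at 530.3 kb for the glutamine carrier gene Slc1a5. For Slc7a6 and Slc38a9, a lysosomal arginine sensor, peaks lay just outside the limit, at 115 and 119 kb. For Slc7a11, the cystine importer gene, and Slc43a1 the distances were 605 and 612 kb.

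Among enzymes, Hk2, which encodes the inducible hexokinase that traps glucose in the cell, had 2 peaks. The nearer (chr6:82770454-82770626) lay in an intron of the gene, 2.45 kb from the nearest TSS and 3.91 kb from the outermost start, in repeat-masked sequence, with a half-site and no DR1. The other (chr6:82836497-82836669) lay 62.1 kb upstream, in an intron of the noncoding RNA gene Gm32591. It held a DR1 match on the minus strand, AGGGCAAAGGTCA, with the single substitution T4G, counted from 1 at the 5′ end of the repeat. Sema4f, the next protein-coding gene, was 81.0 kb from this peak.

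The remaining 21 enzyme genes had no assigned peak. A peak given to a nearer gene stood within 100 kb of 5 of them: the aldolase gene Aldoc (14.2 kb, given to Spag5), the pyruvate kinase gene Pkm (42.2 kb, Parp6), Gapdh (63.9 kb, Chd4), Pfkfb3 (64.6 kb, Gm17490) and Ldha (89.6 kb, Uevld). Pfkfb3 makes the enzyme that sets the level of fructose 2,6-bisphosphate, the activator of phosphofructokinase, and its second peak, at 87.4 kb, held DR1 and was given to Il2ra, whose TSS was 1.33 kb away. Aldoc also had a second peak, at 23.2 kb, which held DR1 and was given to Unc119, whose TSS was 0.547 kb away. For Hk1 the nearest peak was at 104 kb, just outside the limit. All 3 phosphofructokinase genes had none nearer than 325 kb: Pfkp stood at 325 kb, Pfkl at 329.6 kb and Pfkm at 469 kb.

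Nor did the other enzymes of the chain have a peak within 100 kb. The distances were 213 kb for Aldoa, 284 kb for Tpi1, 347 kb for Eno1, 411 kb for Pgk1 and 514 kb for Pgam1, and they passed 1 Mb for Gpi1, at 1002 kb, and Hk3, at 1511 kb. Of the other PFKFB genes, Pfkfb2 stood at 173 kb, Pfkfb4 at 328 kb and Pfkfb1 at 1155 kb. Ldhb, for the lactate dehydrogenase chain that prevails in heart, had its nearest peak at 249 kb. Pdha1, for the pyruvate dehydrogenase subunit that admits carbon to the mitochondrion, stood furthest of the 51 genes, at 6341 kb on chromosome X.

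**Figure D3:**
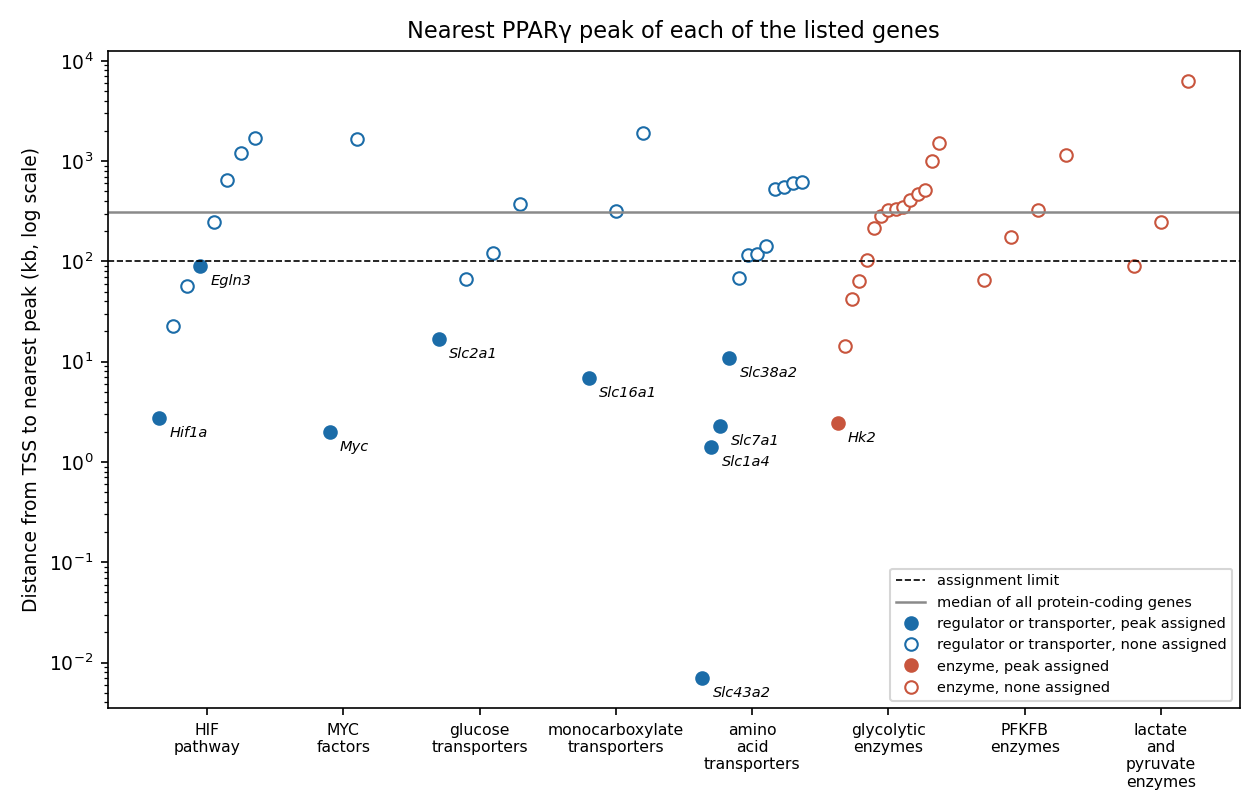
Each point is 1 of the 51 genes, grouped by role, with the distance from its TSSs to the nearest peak in kb on a log scale. Filled points have an assigned peak, the dashed line is the 100 kb limit and the grey line the median of all protein-coding genes (310.1 kb). The median was 119 kb for regulators and transporters and 305 kb for enzymes.

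The 19 peaks sat mostly away from gene starts. They are set here beside the 2228 peaks assigned to any protein-coding gene under the same 100 kb limit. Their median distance to the nearest TSS was 13.1 kb, beside 10.8 kb for all assigned peaks, and 8 of the 19 (42.1%) lay beyond 50 kb, beside 11.8%. Those 8 were the 3 peaks of Egln3, 2 of Hif1a and 1 each of Myc, Slc7a1 and Hk2, genes whose territories ran from 130.2 to 202 kb. By class 10 were intronic (52.6%, all assigned peaks 52.2%), 6 intergenic (31.6%, all assigned peaks 31.7%) and 3 in promoters (15.8%, all assigned peaks 11.0%), of which only that of Slc43a2 counted through its own gene. Measured from the outermost start, 11 lay upstream and 8 downstream. Inside a protein-coding gene, in each case their own, were 7 of 19 peaks (36.8%), against 58.2% of all assigned peaks. Inside a noncoding gene alone were 5 (26.3%), against 5.66%, of which 3 lay in Gm15283 upstream of Hif1a. Another peak stood within 10 kb of 7 of the 19 (36.8%), against 17.1% of all assigned peaks. Those 7 were the cluster of Egln3 and 4 peaks of Hif1a, so this share rests on 2 genes.

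With up to 2 mismatches, DR1 occurred in 2 of the 19 peaks (10.5%, exact 95% interval 1.30 to 33.1), beside 19.8% of all peaks. The interval treats the peaks as independent, although 8 of the 19 belong to Hif1a and Egln3, so it is no test of the difference. With up to 1 mismatch the same 2 peaks held it (10.5%), beside 6.42% of all peaks. Without mismatch it stood in 1 peak (5.26%), beside 1.02%. Which share is the higher thus depends on the mismatches allowed. The half-site AGGTCA occurred in 6 (31.6%, all peaks 27.8%), in 2 of them as part of DR1, and AP-1 in 3 (15.8%, all peaks 17.9%). ETS matches stood in 4 of the 19 peaks (21.1%, all peaks 3.90%), namely in 2 peaks of Hif1a and in those of Myc and Slc43a2. That of Myc lay in the 200 bp window searched for every peak, but outside the called peak. STAT matches stood in 3 (15.8%, all peaks 9.89%), RUNX in 2 (10.5%, all peaks 7.80%) and GATA in 2 (10.5%, all peaks 26.4%). The hypoxia response core occurred in 2 (10.5%, all peaks 18.3%) and the MYC site CACGTG in 0, where all peaks gave 2.21%. The core ACGTG is contained in CACGTG. With 19 peaks, 1 peak more or less moves a share by 5.26 percentage points, and these matches are letters in a window, not measured binding of the factors.

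**Figure D4:**
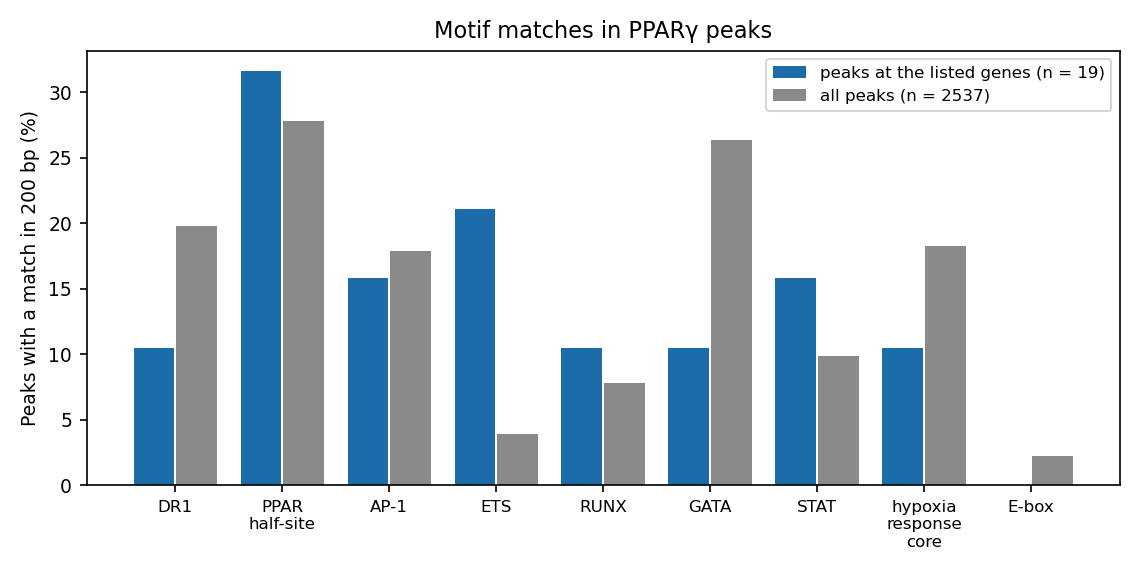
Bars give the percent of peaks with a match to each of 9 motifs in 200 bp around the centre, for the 19 peaks at the listed genes (blue) and for all 2537 peaks (grey). DR1, with up to 2 mismatches, stands at 10.5% beside 19.8%, and ETS at 21.1% beside 3.90%. With up to 1 mismatch the DR1 shares are 10.5% and 6.42%.

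Further genes of the same pathways were read from 6 lists with 112 genes, of which 12 had a peak (10.7%), beside 7.91% of all protein-coding genes. Hypoxia-induced genes outside glycolysis had 3 of 20: Hilpda, for an inhibitor of fat breakdown, with 3 peaks, the nearest at 1.42 kb with DR1; Ddit4, for an inhibitor of mTOR signalling, with a DR1 peak at 13.1 kb; and the collagen hydroxylase gene P4ha2 at 22.5 kb. Glucose and lactate transport had 3 of 18. Txnip, which encodes a brake on glucose uptake, had an intergenic DR1 peak at 2.58 kb, Slc2a8 a peak at 1.67 kb, and Emb, for a chaperone of monocarboxylate carriers, a peak at 24.9 kb.

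Other HIF and MYC network genes had 2 of 18, and both encode glucose-sensing partners in the extended MYC family: Mlxipl with an intronic peak at 8.58 kb and Mlxip with an intronic DR1 peak at 24.5 kb. Pyruvate fate genes had 2 of 15: Pdk4, for a kinase that shuts pyruvate dehydrogenase, with 2 peaks, the nearer at 8.92 kb without DR1 and the other with it, and the malic enzyme gene Me2 at 20.1 kb. Other glycolysis and glycogen genes had 2 of 22, the glycogen phosphorylase gene Pygm at 2.66 kb and the branching enzyme gene Gbe1 at 35.3 kb. Further amino acid transporter genes had 0 of 19.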

How the data were processed

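One ChIP library and 1 input library were made. Bowtie2 alignment to mm10 and peak calling by HOMER against the input are named in the submitters' processing notes, and restriction to unique tags in the series text. Their versions are not given in the sources used here. Calling used a false discovery rate of 0.001 and a 4-fold excess over input and over the local region, per the file headers. The score column of the deposited file is 1 in every row, so it ranks no peak. Unique alignment and filtering against the input remove some regions from view.

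All 51 symbols matched the GENCODE vM21 annotation of GRCm38, the assembly behind mm10. Distances run from peak centres to any annotated transcript start of a protein-coding gene. Promoters reach from 1000 bp before to 100 bp after any annotated start; exons come before introns. Motifs were searched in 200 bp of RefSeq GRCm38.p6. The arms, the motifs and the 112 further genes, all of them matched, were set by hand, and genes and lists were chosen with earlier results of these data known. Every listed gene is named; of the further lists, up to 5 with the nearest peaks. Motif search and assignment were tested on simulated data. No test was run on the gene counts. Intervals are exact (Clopper-Pearson, 95%). Python 3.11.15, numpy 2.4.6, scipy 1.17.1 and matplotlib 3.10.9 were used.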

Additional observations from a re-analysis of the deposited data

How the results depend on the processing

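The main counts were 10 of 51 genes with a peak, 9 of them regulators or transporters and 1 an enzyme, 19 peaks and 2 peaks with DR1. Of 63 values under other settings, 43 stayed within 1.5 times of these and 20 did not. This tally compares counts, not shares, and some values could not move. Counting the PFKFB genes as regulators left both arms at the same count, because 0 of these 4 genes had a peak. The enzyme count rests on Hk2 alone. A 10 kb limit left 7 peaks (1 with DR1), a 50 kb limit 11 (1) and assignment by gene body with 10 kb upstream 8 (1). Any peak within 100 kb, nearest or not, gave 19 genes, 6 enzymes and 33 peaks, 4 with DR1. The first rows of the file, up to the middle, gave 5 genes, 4 of them regulators or transporters, and 8 peaks. The later rows gave 11 peaks, 0 with DR1, and no DR1 share over all later rows is at hand to set beside this 0. DR1 peaks alone gave 2 genes, 1 of them a regulator or transporter, and 2 peaks. A 100 bp window left 1 peak with DR1 (all peaks 12.7%), as did leaving out Hif1a. The settings chosen after seeing the data were the basic annotation, leaving out Hif1a and leaving out peaks in repeats. The 20 that moved come from settings that count fewer or more peaks or bases, and no other cause was tested. No paired analysis was possible because there is 1 ChIP library. With 1 library the spread between cultures is unknown, and peaks below the calling threshold are not seen.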
